A study of Mus musculus with 27 samples.

Results

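The 8 genes described here encode alcohol and aldehyde dehydrogenases and a carrier that handle vitamin A. They are *Adh1*, *Adh7*, *Rdh10*, *Aldh1a1*, *Aldh1a2*, *Aldh1a3*, *Aldh3a1* and *Crabp2*. They were chosen by name, with earlier results of these data known. All probes of the array design that carry one of these names were taken, which gave 13 of 41174 probes and 8 of 28146 names. Expression was measured in mouse esophagus, of C57BL/6J wild-type mice and of mutants that the labels put on that background, on 27 Agilent arrays in 2 colours, with 3 arrays in each of 9 groups. Whole wild-type esophagus came from 2 embryonic stages, E11.5 and E15.5, and 2 postnatal ones, P0 and P7. Whole esophagus at P7 was also taken from Nrf2-/- pups, which lack the transcription factor Nrf2, from Keap1-/- pups, which lack the protein that marks Nrf2 for degradation, and from Nrf2-/-Keap1-/- pups, which lack both. In adults of 8 weeks, wild-type and Nrf2-/- mice, the epithelium alone was used, so age and tissue cannot be told apart between P7 and adult. The deletions were in all cells of the mouse, and Keap1-/- mice die within weeks of birth with a thickened, cornified esophagus.

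Each value is a log2 ratio of the esophagus sample (Cy5) to a common reference RNA (Cy3), averaged over the probes of a gene. A ratio of 0 therefore means the level of the reference, and ratios of different genes cannot be ranked against each other. A gene was called at an adjusted p of 0.05 or lower (limma, Benjamini-Hochberg adjustment over all tested genes). In whole tissue, fewer cells of a type and less RNA per cell cannot be told apart. Across arrays, 58.9% to 69.3% of Cy5 spots were well above background. A pair of wild-type embryo arrays went against their labels. The third E11.5 array correlated with the second E15.5 array and the third at r = 0.981 and 0.976 over all genes, but with its own group at 0.831 and 0.774. The first E15.5 array correlated with the first and second E11.5 arrays at 0.958 and 0.928, but with its own group at 0.804 and 0.812. Some results that rest on them, such as changes of *Adh7*, *Adh1* and *Aldh1a3*, are given with and without both arrays. For *Crabp2*, the rise of *Rdh10* after E15.5 and the vitamin A genes beyond those named above, sizes of change include both arrays. The 3 Keap1-/- arrays had a slide and a scan day of their own and were the only P7 arrays read with the newer scanner software. Genotype therefore cannot be told apart from slide, scan day and software version for that group. Their median Cy3 intensity was 115 to 147, against 223 to 261 on the other P7 arrays. As a check of the labels, 2 of the 3 *Nfe2l2* probes (the gene of Nrf2) were low in all groups without Nrf2, the clearer one at -6.79 to -5.03 on those 9 arrays and at -0.29 to 0.31 in wild-type esophagus at P7. The third, A_52_P523835, did not separate the genotypes, with means of -1.04 in Nrf2-/- and -0.91 in wild-type esophagus at P7. The single *Keap1* probe did not separate Keap1-/- (-0.26 to 0.64) from wild-type esophagus (0.42 to 1.00), and its place relative to the deletion is not known.

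Retinol, the transport form of vitamin A, is oxidised to retinaldehyde by retinol dehydrogenases such as *Rdh10* and by alcohol dehydrogenases such as *Adh1* and *Adh7*. Retinaldehyde is then oxidised irreversibly to retinoic acid by *Aldh1a1*, *Aldh1a2* and *Aldh1a3*. Retinoic acid is carried to its nuclear receptors by *Crabp2* and is degraded by the hydroxylases of the *Cyp26* family. *Aldh3a1* oxidises aldehydes formed from lipid peroxidation and is best known as an abundant protein of the cornea. Retinoic acid patterns the embryonic foregut, and vitamin A limits keratinisation in stratified epithelia. Several alcohol and aldehyde dehydrogenases are among the enzymes that Nrf2 is known to induce.

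*Adh7* and *Adh1* lie beside each other, with start sites 59.8 kb apart on chromosome 3, and moved very differently in these data. Their promoters are shown for that reason, with that of *Aldh1a2* as the one member with a match to a motif searched. Each sequence is from RefSeq on GRCm38.p6, runs on the plus strand from 250 bases before to 50 bases after the start, and is printed in lower case with the match in capitals.
Adh7, chr3:138217523-138217822: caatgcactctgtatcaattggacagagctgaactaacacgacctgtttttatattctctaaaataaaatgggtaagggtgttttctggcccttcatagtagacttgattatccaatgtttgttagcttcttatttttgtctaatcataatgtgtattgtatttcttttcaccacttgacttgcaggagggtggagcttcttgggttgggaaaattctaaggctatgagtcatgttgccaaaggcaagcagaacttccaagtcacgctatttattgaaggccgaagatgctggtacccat
Adh1, chr3:138277335-138277634: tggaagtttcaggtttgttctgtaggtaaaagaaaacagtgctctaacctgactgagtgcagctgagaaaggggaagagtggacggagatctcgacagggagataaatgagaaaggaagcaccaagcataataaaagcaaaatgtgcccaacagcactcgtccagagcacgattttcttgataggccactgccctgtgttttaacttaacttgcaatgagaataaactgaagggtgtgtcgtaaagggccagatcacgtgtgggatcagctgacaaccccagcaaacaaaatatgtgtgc
Aldh1a2, chr9:71215539-71215838: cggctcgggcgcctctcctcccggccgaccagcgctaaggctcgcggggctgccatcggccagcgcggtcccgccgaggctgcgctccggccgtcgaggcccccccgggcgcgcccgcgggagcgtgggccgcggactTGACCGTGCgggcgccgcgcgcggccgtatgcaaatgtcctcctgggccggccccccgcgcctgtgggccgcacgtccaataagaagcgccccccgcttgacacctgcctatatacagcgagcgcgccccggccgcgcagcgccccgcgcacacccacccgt
The motifs were the core of the antioxidant response element that Nrf2 binds, TGACNNNGC, and the half-site of retinoic acid receptors, AGGTCA, read on both strands. Promoters were matched for 4 of the 8 genes, the fourth being *Aldh1a1* with windows at chr19:20492333-20492632 and chr19:20601718-20602017. The only match was TGACCGTGC in *Aldh1a2*, on the forward strand with its first base at -112. Of all 32851 promoters of this length, 12.4% held the first motif and 16.3% the second. *Aldh1a3*, *Aldh3a1*, *Rdh10* and *Crabp2* were not matched.

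The members other than *Crabp2* and *Adh1* parted into genes that were high in Keap1-/- pups and adult epithelium and genes that were low there. *Crabp2* and *Adh1* were not called in Keap1-/- pups. In Keap1-/- against wild-type esophagus at P7, *Adh7*, *Aldh3a1* and *Aldh1a1* rose and *Aldh1a3*, *Aldh1a2* and *Rdh10* fell, 6 of 8 called against 33.3% of all tested genes (3 higher against 15.4% and 3 lower against 17.9%). From P7 to adult, the same 3 genes and *Crabp2* rose and the same 3 and *Adh1* fell, 8 of 8 called against 42.9% (4 higher against 20% and 4 lower against 23%). Both comparisons used the same wild-type P7 arrays, so they are not independent. The members were chosen with earlier results of these data known, so these counts cannot show an excess over the shares of all genes. *Aldh3a1* was well above background on 0 of 3 wild-type P7 arrays. It was tested at P7 and from P7 to adult only through the Keap1-/- or adult arrays where it is high. Its calls therefore add no support to these counts. The median change over the members was 0.20 and 0.68 in these comparisons, and that over all genes -0.02 and 0.01. Keap1-/- differed from Nrf2-/-Keap1-/- esophagus in the same 6 members and directions, against 33.3% of all genes (15.1% higher and 18.2% lower). No member was called in Nrf2-/- (background 0.0157%) or Nrf2-/-Keap1-/- esophagus (0.43%) against wild-type at P7, or in adult Nrf2-/- epithelium (0.498%). At an unadjusted p of 0.05 or lower, 0, 3 and 2 of the 8 passed in these comparisons (limma), against 2042 and 3322 of 19074 and 3046 of 18066 genes in all, the 3 being *Adh7*, *Aldh1a2* and *Aldh3a1* and the 2 *Adh7* and *Aldh1a1*.

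**Figure D1:**
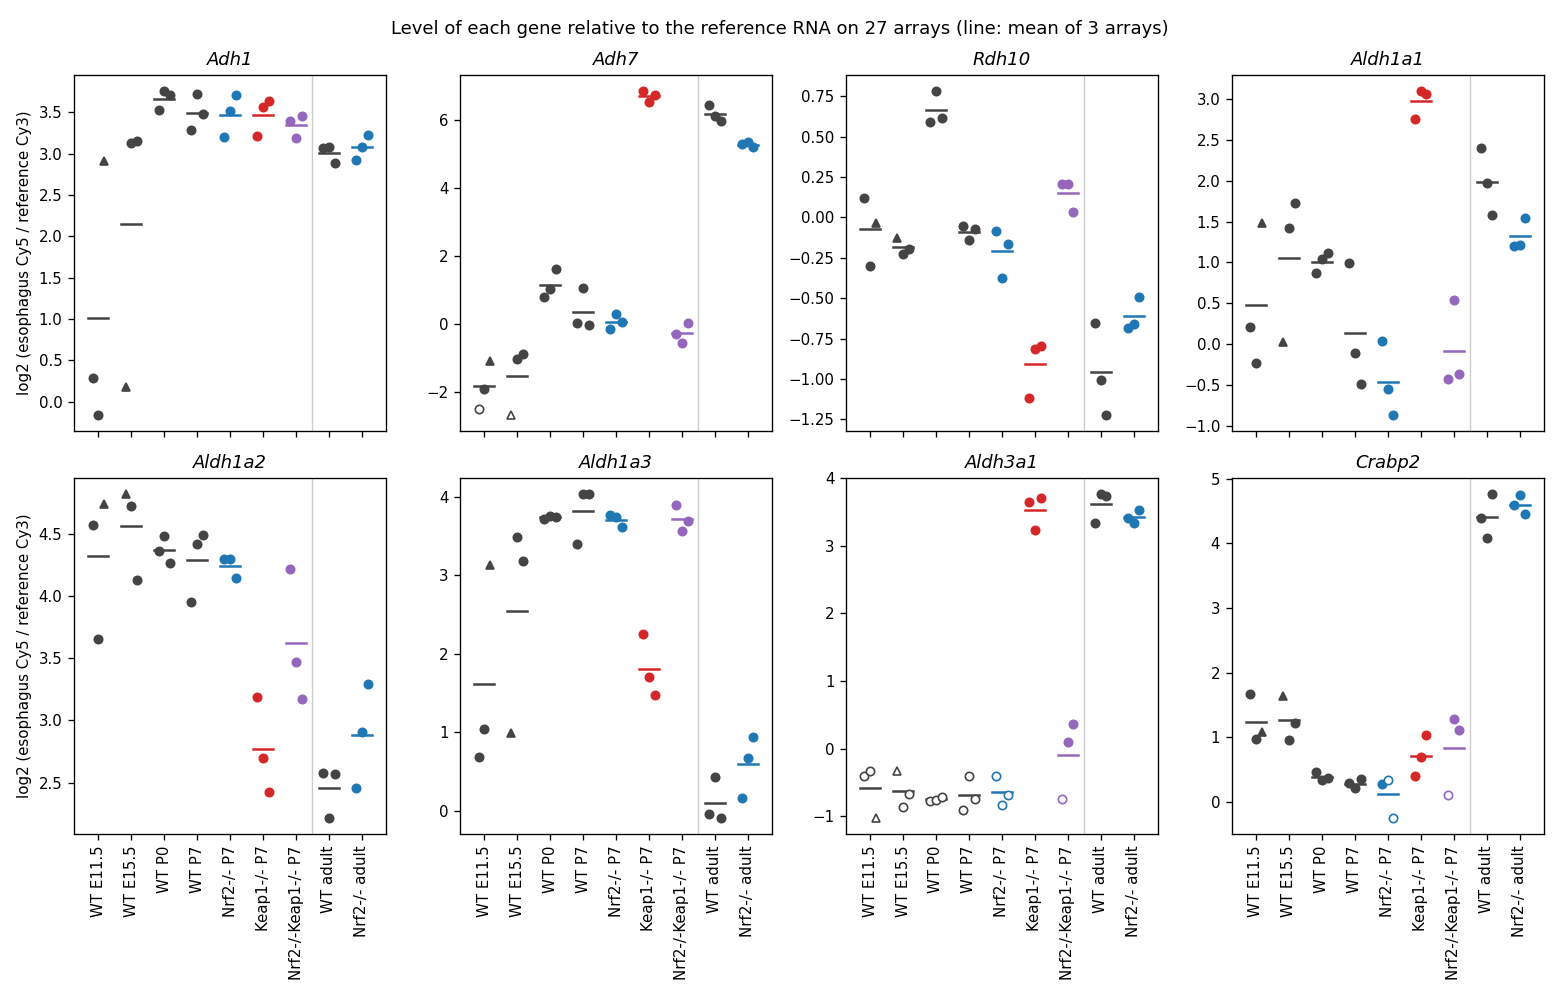
Log2 ratio of esophagus to reference RNA of the 8 genes on all 27 arrays, by group, with a line at the mean of 3 arrays; triangles mark the pair of embryo arrays that went against their labels and open symbols arrays not well above background. *Adh7* reached 6.54 to 6.86 in Keap1-/- and 5.97 to 6.44 in wild-type adult samples, while *Aldh1a3* lay between 3.40 and 4.04 in wild-type esophagus at P7 and between -0.09 and 0.43 in wild-type adults.

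*Adh7*, the class IV alcohol dehydrogenase of upper digestive epithelia, had the widest range of the members. Its group means spanned 8.55 log2 units, wider than for 99.97% of 20761 genes. Its ratio was -2.50, -1.92 and -1.08 at E11.5, then -2.67, -1.01 and -0.87 at E15.5. It was 0.80, 1.03 and 1.61 at P0 and 0.04, 1.06 and -0.01 at P7. All arrays after birth were above all embryonic arrays, of which the lowest of each stage, 2 in all, were not well above background. *Adh7* rose by 2.67 ± 0.51 (SE) from E15.5 to P0 (limma adjusted p = 0.0058) and lay 2.20 ± 0.51 higher at P7 than at E11.5 (adjusted p = 0.01). Without the pair of embryo arrays, these changes were 2.09 and 2.57, both called. With the processed signals of the scanner software they were larger, 4.12 and 3.74, but not called (adjusted p = 0.0778 and 0.074). At P7, it was -0.13, 0.29 and 0.06 in Nrf2-/- and -0.30, -0.55 and 0.02 in Nrf2-/-Keap1-/- esophagus, overlapping the wild-type arrays in both. In Keap1-/- esophagus it was 6.86, 6.54 and 6.74, far above every other P7 array. This was 81.6-fold above wild-type, a log2 difference of 6.35 ± 0.26 (limma adjusted p = 5.12e-08), and 127-fold above Nrf2-/-Keap1-/- esophagus (6.99 ± 0.26, adjusted p = 2.38e-08). Wild-type adult epithelium, at 6.44, 6.14 and 5.97, was 56.5-fold above wild-type esophagus at P7 (5.82 ± 0.29, adjusted p = 1.84e-05).

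Adult Nrf2-/- epithelium had *Adh7* ratios of 5.29, 5.35 and 5.21, below all 3 wild-type adult arrays. The difference of -0.90 ± 0.14 was just outside the threshold (limma adjusted p = 0.0505). Within the only scan day that held both genotypes, with 1 wild-type and 2 Nrf2-/- arrays, it was -0.65. The difference passed without the third wild-type adult array (-1.0, limma adjusted p = 0.0378). That array was the only wild-type one of the shared scan day, so without it genotype and scan day cannot be told apart. The size of the difference moved with the scaling, from -1.72 after scaling between arrays (adjusted p = 0.0371) to -0.19 with median centring. Median centring moved the median of all genes to 0.40 and left *Adh7* at -0.58 relative to it. *Aldh1a1* was the other member of which the adult groups did not overlap, against 22.7% of all genes, at 2.40, 1.98 and 1.57 in wild-type and 1.20, 1.22 and 1.55 in Nrf2-/- epithelium (-0.66 ± 0.21, adjusted p = 0.202, and -0.36 within the shared scan day). The other 6 differences ranged from -0.19 for *Aldh3a1* to 0.49 for *Aldh1a3*. The Nrf2-/- difference in adults minus that at P7 was -0.61 ± 0.35 for *Adh7* (adjusted p = 0.541), and no member was called in that test (0 of 8, against 0.0979% of genes).

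*Adh1*, the class I enzyme of broad tissue range, was high in all groups from P0 on. At E11.5 the ratios were 0.28, -0.16 and 2.92, and at E15.5 0.17, 3.13 and 3.16. The high E11.5 array and the low E15.5 array were the pair that went against their labels. With all arrays, the change from E11.5 to E15.5 was 1.14 ± 0.86 (limma adjusted p = 0.995), and 0 of 7 tested members were called, as were 0% of all genes, with 322 of 19718 genes and 0 members at an unadjusted p of 0.05 or lower. Without the pair, *Adh1* rose by 3.08 ± 0.19 (adjusted p = 1.98e-05), *Aldh1a3* by 2.47 ± 0.22 (0.000139) and *Aldh1a1* by 1.59 ± 0.39 (0.0284). After birth, *Adh1* lay between 3.52 and 3.76 at P0 and between 3.28 and 3.72 in wild-type esophagus at P7. In Keap1-/- esophagus it was 3.22, 3.56 and 3.64, within the spread of the other genotypes (-0.02, adjusted p = 0.936). With the processed signals of the scanner software, however, it was called higher in Keap1-/- by 1.19 (adjusted p = 0.00056). Adult wild-type epithelium, at 3.07, 3.08 and 2.88, was slightly lower than at P7 (fell by 0.48 ± 0.15, adjusted p = 0.0334), a call lost in 15 of 22 alternative settings.

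The 3 *Adh1* probes did not behave alike. A pair of them lie on the gene's strand at chr3:137952821-137953504 of mm9 and had mean ratios of 5.21 ± 0.41 (SD, n = 3) in wild-type and 4.59 ± 0.24 in Keap1-/- esophagus. The third, A_52_P835985, lies on the opposite strand at chr3:137945024-137945083. It was well above background only on the 3 Keap1-/- arrays, with 1.00 to 1.40, against means of 0.05 to 0.36 in the other groups. Without it, the Keap1-/- difference of *Adh1* was -0.62 ± 0.22 (adjusted p = 0.0546) in place of -0.02. What this probe binds in Keap1-/- samples was not tested.

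**Figure D2:**
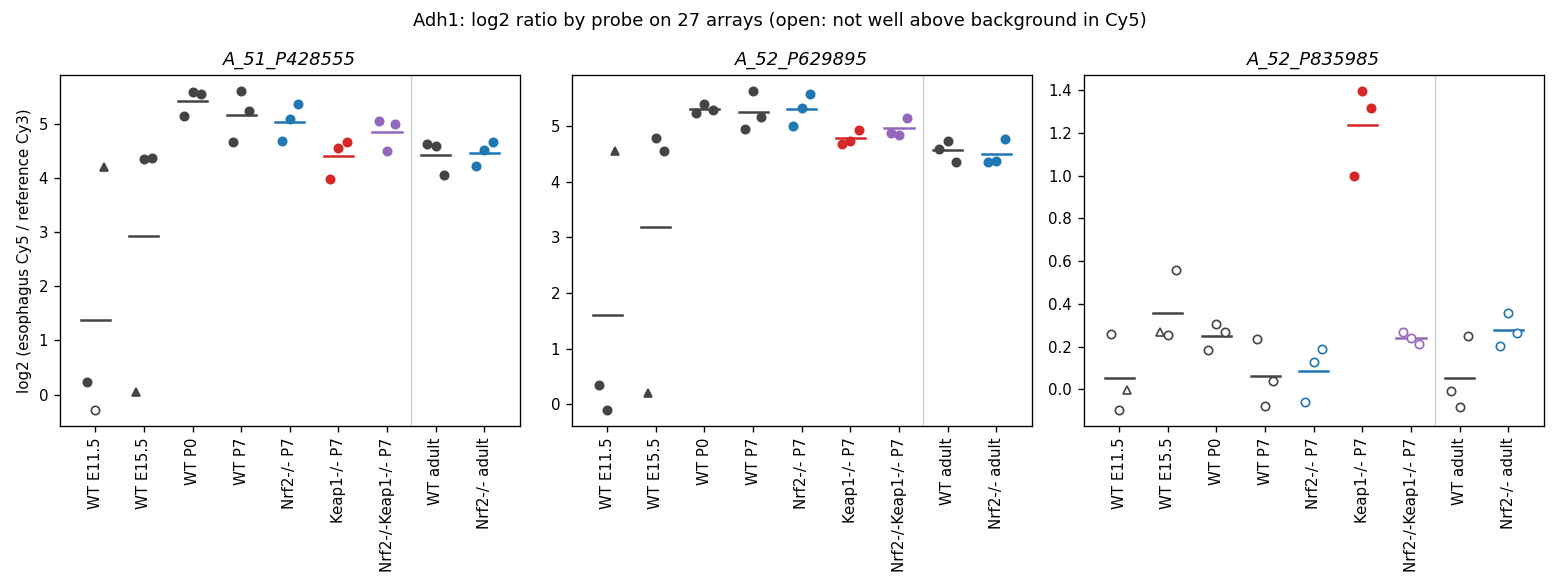
Log2 ratio of each *Adh1* probe on the 27 arrays, with 1 panel a probe, its own vertical scale, a line at each group's mean, triangles for the pair of embryo arrays and open symbols for arrays not well above background. The right-hand probe, on the opposite strand, exceeded background only on the Keap1-/- arrays, at 1.00 to 1.40, where the other probes lay near or below their wild-type P7 level.

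*Rdh10*, the retinol dehydrogenase that embryos need to make retinaldehyde, had the narrowest range of the members, 1.62 log2 units, but tight replicates. Its ratio was 0.12, -0.30 and -0.04 at E11.5 and -0.13, -0.22 and -0.20 at E15.5. At P0 it was 0.59, 0.78 and 0.62, above all 9 other arrays of the time course. It rose by 0.85 ± 0.12 from E15.5 to P0 (limma adjusted p = 0.00105), or by 0.60 with its brightest probe alone, which was not called (adjusted p = 0.0548). It fell by 0.75 ± 0.12 from P0 to P7 (adjusted p = 0.00817), the second no longer called when each spot's own local background was used (-0.61, adjusted p = 0.138). It was the only one of 7 members called between P0 and P7, where 2.42% of genes were called. In Keap1-/- esophagus the ratio was -1.12, -0.82 and -0.79, against -0.06, -0.14 and -0.07 in wild-type. No other P7 array was as low, and the difference was -0.82 ± 0.11 (adjusted p = 0.000399), or -0.44 with median centring (adjusted p = 0.0707). Wild-type adult epithelium was also below P7, with -0.65, -1.0 and -1.22 (-0.87 ± 0.16, adjusted p = 0.00434). All 3 of its probes moved in the same direction in Keap1-/- esophagus.

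The retinaldehyde dehydrogenases did not move together. *Aldh1a1* rose in Keap1-/- esophagus while *Aldh1a2* and *Aldh1a3* fell, and the same split was seen from P7 to adult. *Aldh1a1* ratios in wild-type esophagus at P7 were spread widely, at 0.99, -0.10 and -0.48. They were 0.04, -0.55 and -0.86 in Nrf2-/- and -0.42, 0.54 and -0.36 in Nrf2-/-Keap1-/- esophagus, and 2.75, 3.1 and 3.07 in Keap1-/- esophagus. Only the Keap1-/- arrays stood apart, 7.14-fold above wild-type (2.84 ± 0.38, limma adjusted p = 0.000314) and 8.27-fold above Nrf2-/-Keap1-/- esophagus (3.05 ± 0.38, adjusted p = 0.000208). Wild-type adults were 3.6-fold above P7 (1.85 ± 0.38, adjusted p = 0.00706). Of the 27 spots of its single probe, 12 carried an outlier mark from the scanner software, and they were kept; without them, the change to adult was 1.52 (adjusted p = 0.0567). The probe of its close relative *Aldh1a7*, named after its values were seen, differed by -0.11 between Keap1-/- and wild-type esophagus (adjusted p = 0.643).

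*Aldh1a2*, the main source of retinoic acid in early embryos and made chiefly by mesenchyme and mesothelium, was 3.65 to 4.82 on all 12 arrays of the wild-type time course. None of its changes among those stages was called. At P7 it was 3.95, 4.42 and 4.49 in wild-type and 3.19, 2.70 and 2.42 in Keap1-/- esophagus. The Keap1-/- arrays were below all wild-type arrays, by 1.52 ± 0.27 in the mean (2.86-fold, limma adjusted p = 0.00163). Nrf2-/-Keap1-/- esophagus, at 4.22, 3.47 and 3.17, lay between both and overlapped each. It was not called against wild-type (-0.67, adjusted p = 0.231), and Keap1-/- was lower than it by 0.85 ± 0.27 (adjusted p = 0.0304), a call lost in 8 of 19 alternative settings, among them without the second Keap1-/- array (-0.82, adjusted p = 0.0856), the third (-0.68, 0.12) or the first Nrf2-/-Keap1-/- array (-0.55, 0.108). Wild-type adult epithelium had 2.58, 2.22 and 2.57, 3.56-fold below P7 (-1.83 ± 0.18, adjusted p = 0.000303).

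*Aldh1a3*, an enzyme of epithelia, followed the reverse course of *Adh7* after P7. Its ratio was 0.68, 1.03 and 3.13 at E11.5 and 0.98, 3.48 and 3.18 at E15.5, the odd array of each stage again being one of the pair. It was 3.71 to 3.75 at P0 and 3.40, 4.04 and 4.03 at P7. *Aldh1a3* was higher at P7 than at E11.5 by 2.21 ± 0.69 (limma adjusted p = 0.0349), and by 2.96 without the pair, with the call lost in 7 of 20 alternative settings (lowest 1.74 without the first E11.5 array, adjusted p = 0.129; also without the second E11.5 array or any 1 of the P7 arrays, 1.92 to 2.42). The Keap1-/- arrays, at 2.25, 1.70 and 1.48, were 4.04-fold below wild-type (-2.01 ± 0.21, adjusted p = 6.53e-05). Nrf2-/- (3.61 to 3.76) and Nrf2-/-Keap1-/- (3.56 to 3.89) arrays lay within the wild-type range. In adult wild-type epithelium the ratio was -0.05, 0.43 and -0.09, 13.2-fold below P7 (-3.72 ± 0.22, adjusted p = 3.64e-05). That mean includes the dimmer probe, A_52_P113518, which was not well above background on any of the 3 adult arrays. Its brighter probe, A_52_P87843, fell further, from 6.59 ± 0.39 (SD, n = 3) in wild-type at P7 to 3.26 ± 0.61 in Keap1-/- and 0.31 ± 0.46 in adults.

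Markers of some other cell types were lower in Keap1-/- esophagus and others were not. In adult epithelium, markers of most types outside the epithelium were lower. The mean ratio over 6 fibroblast and mesenchyme markers was 1.75 to 2.07 in wild-type esophagus at P7, 0.46 to 0.92 in Keap1-/- and -0.35 to 0.28 in wild-type adult samples. The markers called lower numbered 5 of 6 in Keap1-/- and 6 of 6 in adult samples. Over all genes, 17.9% were called lower in Keap1-/- esophagus and 23% from P7 to adult. For mesothelium, 3 of 5 were lower in Keap1-/- and 4 of 4 in adults. For simple epithelium, 4 of 4 were lower in Keap1-/-, with mean ratios of -3.21 to -2.99 against 0.91 to 1.74, and 3 of 4 in adults. In Keap1-/- esophagus, 5 of 6 smooth muscle markers were lower and 1 higher, 3 of 4 leukocyte markers were lower, and of 6 striated muscle markers 2 were higher and 1 lower. None of 4 endothelial markers (median change 0.12) or of 4 tested markers of enteric neurons and glia (-0.17) was called there by limma, with 1 and 2 at an unadjusted p of 0.05 or lower. From P7 to adult, however, 4 of 4 endothelial and 4 of 4 tested enteric markers were called lower. So were 6 of 6 striated muscle, 4 of 6 smooth muscle and 1 of 4 leukocyte markers. The 9 suprabasal squamous markers averaged 3.70 to 4.34 in Keap1-/- and 4.0 to 4.50 in wild-type esophagus, with 1 called higher and 1 lower. In wild-type adults they averaged 4.28 to 4.62. From P7 to adult, 5 of the 9 were called higher (20% of all genes) and 1 lower (23%). Of 6 basal epithelial markers, 1 was called higher in Keap1-/- esophagus (15.4% of all genes) and 2 from P7 to adult (20%). The part of these shifts in the changes of the members, in the rises as in the falls, was not tested.

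*Aldh3a1* was not well above background on any of the 12 arrays of the wild-type time course and was not tested there. Its ratios in wild-type esophagus at P7 were -0.91, -0.41 and -0.74, and in Nrf2-/- esophagus -0.40, -0.84 and -0.69. In Keap1-/- esophagus they were 3.64, 3.24 and 3.71, in wild-type adults 3.33, 3.77 and 3.74, and in Nrf2-/- adults 3.41, 3.34 and 3.53. The gene thus passed background in 3 whole groups, 2 of adult epithelium and the Keap1-/- pups, and on 2 of 3 arrays of Nrf2-/-Keap1-/- esophagus, at -0.75, 0.10 and 0.36. The ratio was 4.22 ± 0.26 higher in Keap1-/- than in wild-type esophagus (18.6-fold, limma adjusted p = 1.44e-06) and 4.30 ± 0.18 higher in adults than at P7 (19.7-fold, adjusted p = 9.61e-06), on a scale with 50 added to each intensity and from a wild-type P7 signal that is only a bound. In the Cy5 channel alone, against the lowest clearly detected signal, the differences were 91.5-fold and 102-fold and were not tested. The Cy3 signal of the same spots was also higher, by 2.31 and 2.39 log2 units, so the size of the change is not settled.

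*Crabp2*, the carrier that delivers retinoic acid to its receptors, rose from P7 to adult but was not called in Keap1-/- esophagus. Its ratio was 1.67, 0.98 and 1.08 at E11.5 and 1.63, 0.95 and 1.22 at E15.5. After birth it was 0.46, 0.34 and 0.37 at P0 and 0.29, 0.21 and 0.35 at P7, below every embryonic array. It fell by 0.88 ± 0.20 from E15.5 to P0 (limma adjusted p = 0.0121) and was 0.96 ± 0.20 lower at P7 than at E11.5 (adjusted p = 0.00549). The first call was lost in 4 of 20 alternative settings, with median centring (-0.52, adjusted p = 0.0591), own local background (-0.73, 0.108), the processed signals (-1.16, 0.0613) and the deposited ratios (-1.16, 0.0611). The second was lost in 1 of 20, with own local background (-0.63, 0.11). Wild-type adults, at 4.39, 4.08 and 4.77, were 17.5-fold above P7 (4.13 ± 0.18, adjusted p = 1.04e-05), though not called with each spot's own local background (1.86, adjusted p = 0.139). Nrf2-/- adults, at 4.58, 4.75 and 4.45, overlapped them. Keap1-/- esophagus had 0.40, 0.70 and 1.04, above all wild-type P7 arrays but not called (0.43, adjusted p = 0.277). With *Adh7* and *Rdh10*, it made up the 3 of 7 members called from E15.5 to P0, where 19.7% of genes were called. The 3 of 7 called from E11.5 to P7, against 30.2% of genes, were *Adh7*, *Aldh1a3* and *Crabp2*. Over the 4 stages, *Adh7*, *Crabp2* and *Rdh10* were called, 3 of 7 against 30% of genes.

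**Figure D3:**
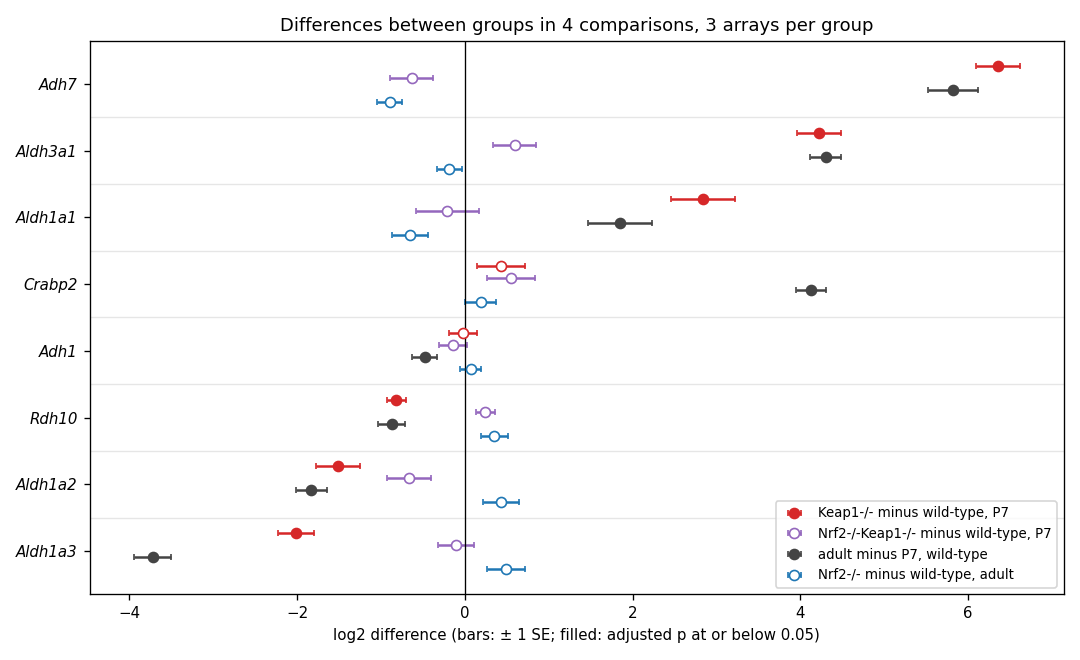
Log2 change of each of the 8 genes in the comparisons named, as point and SE, with filled points where limma's adjusted p was 0.05 or lower. *Aldh3a1* was not well above background on any of the 3 wild-type P7 arrays, so its changes from them start from a bound. In Keap1-/- against wild-type esophagus, *Adh7* (6.35), *Aldh3a1* (4.22) and *Aldh1a1* (2.84) lie to the higher side and *Aldh1a3* (-2.01), *Aldh1a2* (-1.52) and *Rdh10* (-0.82) to the lower, while *Crabp2* is called from P7 to adult (4.13) but not in Keap1-/- (0.43).

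The order of the group means differed between members. For *Adh7*, Keap1-/- (6.71 ± 0.16, SD, n = 3) and wild-type adult samples (6.18 ± 0.24) came first, followed by Nrf2-/- adult samples (5.28 ± 0.07), with all others at 1.15 or lower. None of these 3 groups overlapped another, and Keap1-/- was not tested against adults. For *Crabp2*, both adult groups (4.60 ± 0.15 and 4.41 ± 0.34) overlapped at the top and all pup and embryo groups were at 1.27 or lower. *Aldh3a1* had its 3 highest means, 3.43 to 3.61, in groups that overlapped. Over the 9 group means, the gene most like *Adh7* with a symbol was *Dnase2a* (r = 0.993), that most like *Aldh3a1* *Atp6v0a4* (0.995), and that most like *Crabp2* *Pdcd2* (0.994). *Aldh1a3* was most like *Tspan2* (0.988), *Aldh1a2* like *Ywhah* (0.992), *Aldh1a1* like *Ddx56* (0.983), *Rdh10* like *Rfk* (0.962) and *Adh1* like *Cyp2f2* (0.969). These correlations were the highest among genes with a symbol, of 20760 genes compared, share the reference and the arrays, and describe the 9 means only.

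Other genes of vitamin A metabolism were called in both directions. A list of 67 such genes outside the 8, also chosen with earlier results of these data known, had 64 on the array. In Keap1-/- against wild-type esophagus, 24 of 55 tested were called against 33.3% of all genes, 13 higher and 11 lower, with a median change of 0.05 (-0.02 over all genes). From P7 to adult, 36 of 54 were called against 42.9% of all genes, 21 higher and 15 lower, with a median of 0.16 (0.01 over all genes). Against Nrf2-/-Keap1-/- esophagus, 26 of 55 were called in Keap1-/- (33.3% of all genes), 18 higher and 8 lower. In Nrf2-/- and in Nrf2-/-Keap1-/- against wild-type esophagus, 0 of 55 were called (limma), with 7 and 5 at an unadjusted p of 0.05 or lower, against 2042 and 3322 of all 19074 genes.

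The counts by role are small and are read against the same shares of all genes, 33.3% called in Keap1-/- esophagus and 42.9% from P7 to adult. By role, 6 of 16 other aldehyde dehydrogenases were called in Keap1-/- esophagus (4 higher, 2 lower) and 8 of 16 from P7 to adult (5 higher, 3 lower). Of 14 other retinol and retinaldehyde oxidoreductases, 7 were called in Keap1-/- (5 higher, 2 lower) and 10 from P7 to adult (7 higher, 3 lower). *Akr1b8*, an aldo-keto reductase that reduces aldehydes, had mean ratios of -2.45 ± 0.42 (SD, n = 3) in wild-type, 3.09 ± 0.25 in Keap1-/- and -2.36 ± 0.18 in Nrf2-/-Keap1-/- esophagus. It rose by 5.55 ± 0.21 in Keap1-/- (limma adjusted p = 2.46e-08). In adults it was -0.15 ± 0.16 in wild-type and -2.89 ± 0.08 in Nrf2-/- epithelium, a fall of 2.75 ± 0.13 (adjusted p = 0.000453), and it was the only one of 53 genes of the list called there. *Sdr16c5*, an epidermal retinol dehydrogenase, rose by 4.61 ± 0.16 from P7 to adult (limma adjusted p = 5.09e-06) and was 4.0 ± 0.31 higher in Keap1-/- than in Nrf2-/-Keap1-/- esophagus (adjusted p = 9.05e-06). It was well above background on only 2 of 3 wild-type P7 and 1 of 3 Nrf2-/-Keap1-/- arrays. Both differences therefore start from a level near background, and the gene was tested from P7 to adult only through the adult arrays where it is high.

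Of 10 carriers and storage genes, 4 were called in Keap1-/- esophagus (2 higher, 2 lower) and 7 from P7 to adult (4 higher, 3 lower). *Fabp5*, a fatty acid carrier that also binds retinoic acid, rose by 4.11 ± 0.37 in Keap1-/- (limma adjusted p = 2.43e-05) and by 5.0 ± 0.24 from P7 to adult (1.68e-05). *Rbp4*, the serum carrier of retinol, fell by 4.07 ± 1.07 in Keap1-/- (adjusted p = 0.0145), with wild-type P7 arrays from 1.67 to 3.98. *Rbp2*, first known from the intestine, rose in steps, by 2.64 ± 0.14 from E15.5 to P0 (adjusted p = 1.22e-06) and by 1.30 ± 0.14 from P0 to P7 (adjusted p = 0.00106), the only gene of the list called in that last interval.

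The enzymes that degrade retinoic acid followed different courses. *Cyp26a1* was 3.70 ± 0.83 (SD, n = 3) at E11.5, 3.81 ± 1.09 at E15.5, 1.37 ± 0.25 at P0 and 0.61 ± 0.43 at P7, and fell by 2.44 ± 0.52 from E15.5 to P0 (limma adjusted p = 0.00951). It was not well above background in any adult sample. *Cyp26b1* had means of 0.52 at E11.5, 0.40 at E15.5, 0.16 at P0 and 0.57 ± 0.67 at P7 in wild-type esophagus. In Keap1-/- esophagus it was 4.94 ± 0.20, higher by 4.37 ± 0.43 (limma adjusted p = 3.84e-05), and in wild-type adult epithelium 3.77 ± 0.34. Among receptors, 2 of 6 were called in Keap1-/- esophagus and 4 of 5 from P7 to adult, where *Rxrg* fell by 3.89 ± 0.32 (limma adjusted p = 0.000133). All 6 striated muscle markers fell there too, as did markers of most other types outside the epithelium, and their part in the fall of *Rxrg* was not tested. Of 10 genes known to respond to retinoic acid, 7 were called in Keap1-/- esophagus, 1 higher and 6 lower (median -0.73), against 33.3% of all genes called, 17.9% lower, with a median of -0.02. From P7 to adult 7 were called, 2 higher and 5 lower (median -0.80), against 42.9% of all genes called, 23% lower, with a median of 0.01. Mesenchymal markers fell in the same samples, as given above, and their part was not tested.

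**Figure D4:**
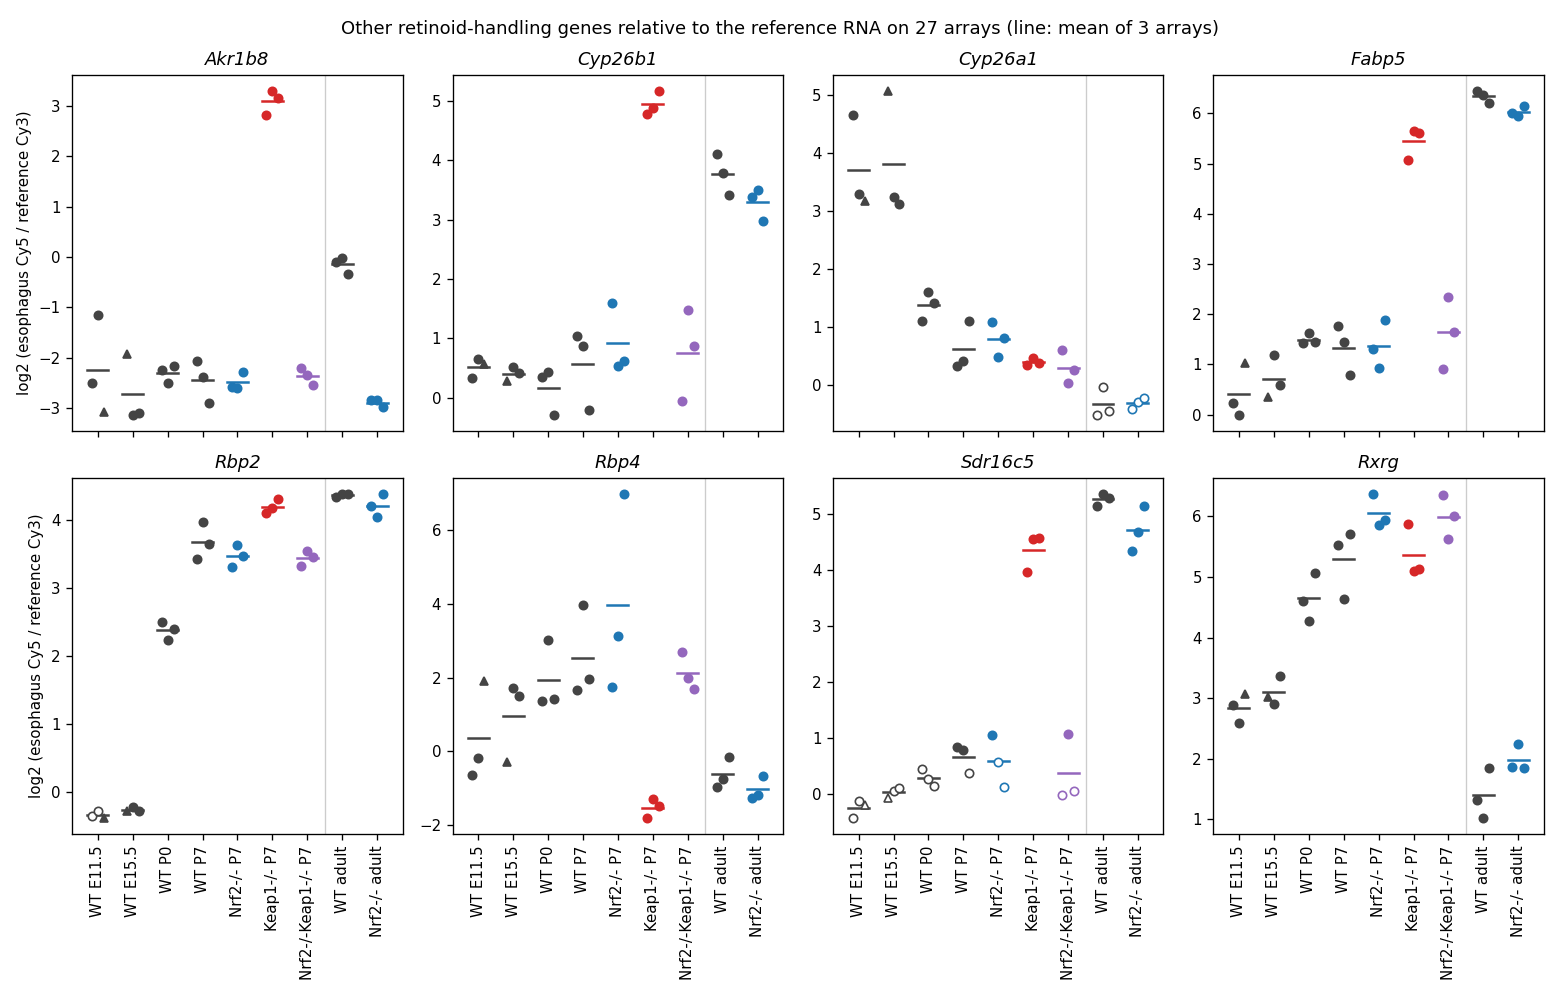
Log2 ratio of esophagus to reference RNA of 8 other retinoid-handling genes on the 27 arrays, by group, with a line at each mean, triangles for the pair of embryo arrays and open symbols for arrays not well above background. *Akr1b8*, *Cyp26b1*, *Fabp5* and *Sdr16c5* are high in Keap1-/- but not in Nrf2-/-Keap1-/- esophagus, *Cyp26a1* is highest in embryos, and *Akr1b8* is lower in Nrf2-/- (-2.89) than in wild-type adults (-0.15).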

How the data were processed

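Esophageal RNA, taken from individual esophagi per the study's methods, was labelled with Cy5 and hybridised beside Universal Mouse Reference RNA in Cy3, without dye exchange. The authors deposited scanner output with mean spot intensities and median intensities of the surrounding background for both dyes, from Agilent Feature Extraction 10.5.1.1 (20 arrays) or 10.7.3.1 (7 arrays) per the file headers; the submitters' processing notes give 9.1. Their deposited log10 ratios of Cy5 to Cy3 matched those of Feature Extraction to 0.005. The median Cy5 intensity of an array was 81.8 to 226, and 3 arrays a group limit the precision.

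Background was removed with normexp (offset 50), and loess was run on each array with control spots at weight 0. A spot was left out where its local background exceeded 5 times the array's median. Outlier-marked spots were kept; they made up 8.46% to 16.1% of spots in the older software version and 0.343% to 3.72% in the newer. Log2 ratios of spots were averaged by probe and then by gene name, and gaps took the sum of probe and array effects. Testing required 1 probe to exceed background clearly in Cy5 on 3 or more arrays of the fit, and 2 values a group. limma 3.58.1 (lmFit, eBayes) in R 4.3.3 with statmod 1.5.0 gave the p-values, adjusted by Benjamini-Hochberg over all tested genes, and was tested on simulated data. The wild-type stages up to P7, the P7 genotypes, wild-type P7 with adult, the adult genotypes, and both genotypes at both ages were 5 separate fits. The Cy5 folds of *Aldh3a1* compare intensities after loess and Aquantile normalization, take the higher of the probe's own signal and the lowest clearly detected signal for the dim group, and are open to dye bias.

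The 8 members and all gene lists were chosen with earlier results of these data known. Beside the members, up to 4 called genes of the lists were named for each comparison (groups apart, largest change first), and the gene most like each member. One gene that this rule named is not reported here. Alternatives covered background correction, scaling, filters, probe choice, the deposited ratios, blocks for replicate number, slide, scan day and software version, and leaving out each array; *Adh1* without its opposite-strand probe was added after seeing the data. The 11 slides, 4 scan days and 2 software versions were confounded in part with group.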

Additional observations from a re-analysis of the deposited data

Results flagged for a closer look

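For *Akr1b8*, the Nrf2-/- difference in adults minus that at P7 was -2.71 ± 0.27 (SE, limma adjusted p = 0.00268), from 3 arrays in each of 4 groups, with all Nrf2-/- adult arrays below all wild-type adult arrays. Of the genes described, it was the only one called in that test, as 0 of 8 members and 1 of 57 genes of the list.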

How the results depend on the processing

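Of 27 called changes of the members, 15 were called under every alternative run, 12 lost the call under some and 0 changed sign. Of 57 uncalled ones, 36 changed sign and 8 were called under some alternative. Over the 4 wild-type stages, 3 members were called, 3 to 5 when each array was left out in turn, 5 with all 27 arrays in the fit and 6 without the pair of embryo arrays. From E11.5 to E15.5, 0 were called, and 3 without that pair; slide as a block turned *Adh1* (-0.84), *Aldh1a1* (-0.46) and *Aldh1a3* (-0.63), where both arrays of the pair lay on the one slide that held both stages, one of them as its only E15.5 array. From E15.5 to P0, the count of 3 became 1 with the processed signals of the scanner software, with the deposited ratios, and with at least a 2-fold change. From P0 to P7, the count of 1 became 0 with each spot's own local background and with at least a 2-fold change. From E11.5 to P7, it was 3, 2 to 4 with each array left out, and 1 with own local background; *Rdh10* (-0.02) became 0.053 without outlier-marked spots, 0.0039 without background correction, 0.00065 without the pair, and -0.13 to 0.080 with each array left out. From P7 to adult, 8 became 5 without outlier-marked spots, and 6 to 8 with each array left out. In adults, 0 became 1 after scaling between arrays, and 0 to 1 with each array left out, while *Aldh1a1* became 0.042 with median centring. *Adh1* in Keap1-/- against wild-type (-0.02) became 0.070 without outlier-marked spots, 0.22 without background correction, 1.19 with the processed signals, 0.039 with median centring, 1.25 with the deposited ratios, and -0.13 to 0.11 with each array left out. Against Nrf2-/-Keap1-/- esophagus (0.12), it became -0.18 with the brightest probe and -0.31 without the opposite-strand probe. The cause of these shifts was not tested.

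Same-numbered arrays correlated at -0.45 to 0.64 in the time course. That range cannot settle whether the numbers pair samples, and no pairing was assumed. With the replicate number as a block, *Adh1* lost its call from P7 to adult (limma adjusted p = 0.0573) and gained it from E11.5 to P7 (2.48, adjusted p = 0.0339). Over all genes, the calls in Nrf2-/-Keap1-/- esophagus numbered 82, and 4 to 496 under alternatives. In adult Nrf2-/- epithelium they numbered 90, and 20 to 1667, and for the difference between the ages 19, and 9 to 1132. Without the pair of embryo arrays, calls from E11.5 to E15.5 went from 0 to 2679 and from P0 to P7 from 478 to 1081, or to 931 with all 27 arrays. Own local background gave 1713 in place of 3881 calls from E15.5 to P0, 243 of 478 from P0 to P7, 3674 in place of 5919 over the 4 stages, and 4160 in place of 7738 from P7 to adult, where median centring gave 4321. In Nrf2-/- esophagus, 3 calls became 5 to 9. Median centring raised the share of higher calls in Keap1-/- from 46.1% to 65.9%, with the all-gene median at 0.11, and in adults from 53.3% to 85%; it lowered it from 57.3% to 40.7% from E15.5 to P0 and from 55.8% to 36.4% from E11.5 to P7. *Aldh3a1* was below background on 16 of 27 arrays, where its level is only a bound.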
